A study of Xenopus tropicalis with 12 samples.

Results

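The genes eda2r, pla2g2e, crisp1.7 and znf704 had RNA in tadpole brain samples, and little of it was left at the end of metamorphosis. They were picked by name, for their stage pattern in these same libraries, so their levels over the stages are a description and carry no test. Each name sat on 1 gene model, which makes 4 of the 33875 models in the deposited count matrix, and all 4 were among the 19584 models that passed the filter on low counts. RNA came from the middle part of the brain, which holds the preoptic area, hypothalamus and thalamus, of wild-type Xenopus tropicalis with no treatment given in the labels. The Nieuwkoop-Faber (NF) stages were NF50 (premetamorphosis), NF56 (prometamorphosis), NF62 (climax) and NF66 (end of metamorphosis), with 3 biological replicates each, numbered 1, 3 and 4 at NF50 and 1, 2 and 3 later. No source used here gives the age of the animals or how many stand behind a library.

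Metamorphosis of the frog is driven by thyroid hormone, and in the brain it replaces larval cells and circuits while cell division gives way to maturation. The genes have no shared pathway. Eda2r is a receptor of the tumour necrosis factor (TNF) family that binds the A2 form of ectodysplasin. Pla2g2e is a secreted phospholipase A2, an enzyme that needs calcium and frees fatty acids, arachidonic acid among them, from membrane phospholipids. Crisp1.7 belongs to the cysteine-rich secretory proteins of the CAP superfamily, whose mammalian members are best known from the male reproductive tract. Znf704 is a zinc finger protein related to Znf395, and in mouse its gene was described as induced by glucocorticoid.

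The models were XLOC_027036 for eda2r (2484 bases), XLOC_025285 for pla2g2e (2732 bases), XLOC_035114 for crisp1.7 (1481 bases) and XLOC_015169 for znf704 (10956 bases). The name crisp1.7 was reached through the gene ID in the RefSeq gene table, since the deposited annotation describes that model as cysteine-rich secretory protein 3. Coordinates are left out, as no source used here gives the genome build. The counts are expected counts, in which a read that matches several models is divided among them. The count was whole to within 0.005 in 10 of 12 libraries for eda2r, in 2 for pla2g2e and in none for crisp1.7 and znf704, so the levels of pla2g2e, crisp1.7 and znf704 include divided reads and are less certain.

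The libraries held 12046529 (NF56 replicate 3) to 31029733 (NF66 replicate 3) expected counts. Within a stage Spearman's correlation between libraries was 0.975 to 0.9949 and no pair was identical. Levels are CPM, the count as a share of the library's total, after scaling of the library sizes. The 20 models of neurons of this region summed to 7180 to 9270 CPM and none was at 0 in any library. A gene is called higher or lower where edgeR's quasi-likelihood test gave a Benjamini-Hochberg adjusted p under 0.05 over all 19584 models. In bulk tissue, fewer cells of a type and less RNA per cell cannot be told apart.

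Eda2r, the receptor, stood at 5.91, 17.1 and 4.94 CPM in the NF50 libraries (replicates 1, 3 and 4). At NF56 it stood at 1.06, 0.729 and 0.795 CPM, at NF62 at 0.198, 0.53 and 0.342 CPM, and at NF66 at 0.185, 0.157 and 0.341 CPM. Every NF50 library lay above every later library, and the lowest NF50 library was 4.65 times the highest NF56 library. NF62 and NF66 overlapped. The stage means were 9.33 ± 6.79, 0.862 ± 0.177, 0.357 ± 0.166 and 0.228 ± 0.0993 CPM (SD, n = 3 each). Of the NF50 mean, 9.23% was left at NF56, 3.82% at NF62 and 2.44% at NF66. The NF62 and NF66 values rest on 26 and 18 reads over 3 libraries. Pooled, these reads are 3.81% and 2.64% of the NF50 mean, with 95% Poisson intervals of 2.49 to 5.58% and 1.57 to 4.18%. Here and below, the intervals are those of the pooled, rounded counts. They cover counting error only and take the NF50 mean as fixed. NF50 replicate 3 decided the NF50 mean: without it the mean was 5.42 CPM, and 15.9%, 6.58% and 4.20% were left at the later stages. The loss was therefore early, with 90.8% of the NF50 CPM gone by NF56, but its size at NF56 depended on that library.

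Pla2g2e, the secreted lipase and at NF50 the most abundant of the set, stood at 102, 58.9 and 122 CPM in the NF50 libraries. At NF56 it stood at 36.3, 21.5 and 18.0 CPM, at NF62 at 1.43, 2.0 and 1.84 CPM, and at NF66 at 0.785, 0.629 and 0.838 CPM. No library of a later stage reached the lowest library of the stage before it, in any of the 3 steps. The stage means were 94.4 ± 32.4, 25.2 ± 9.75, 1.75 ± 0.295 and 0.751 ± 0.108 CPM (SD, n = 3 each). Of the NF50 mean, 26.7% was left at NF56, 1.86% at NF62 and 0.795% at NF66, a level 126-fold below NF50. The 56.1 reads pooled at NF66 give a 95% Poisson interval of 0.614 to 1.06%. Each step down was visible, and the step from NF56 to NF62 was the largest on a ratio scale, 14.4-fold against 3.74-fold before it and 2.34-fold after it.

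Crisp1.7, the cysteine-rich secretory protein, stood at 21.3, 12.2 and 27.1 CPM in the NF50 libraries. At NF56 it stood at 7.68, 8.79 and 3.73 CPM, at NF62 at 0.0792, 0.122 and 0.299 CPM, and at NF66 at 0.0923, 0.21 and 0.186 CPM. NF50, NF56 and NF62 did not overlap, and NF62 and NF66 did. The stage means were 20.2 ± 7.54, 6.74 ± 2.66, 0.167 ± 0.117 and 0.163 ± 0.0621 CPM (SD, n = 3 each). Of the NF50 mean, 33.4% was left at NF56, 0.827% at NF62 and 0.806% at NF66. The last 2 values rest on 12.6 and 12.4 reads. Pooled, the shares were 0.813% and 0.815%, with 95% Poisson intervals of 0.420 to 1.42% and 0.421 to 1.42%. No difference between NF62 and NF66 could be seen at that depth, and the log2 fold change between them, -0.00 ± 0.82 (SE), became 0.68 without NF62 replicate 3. Nearly all the remaining RNA of crisp1.7 was thus gone between NF56 and NF62, a 40.3-fold step of means that rests on 12.6 reads at NF62. The fitted log2 fold change for this step, -5.33, became -6.01 without NF62 replicate 3.

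Znf704, the zinc finger protein, kept its level into prometamorphosis. It stood at 44.5, 48.3 and 39.5 CPM at NF50, at 31.4, 49.7 and 52.2 CPM at NF56, at 4.63, 3.91 and 3.25 CPM at NF62, and at 3.74, 6.08 and 7.01 CPM at NF66. NF50 and NF56 overlapped, as did NF62 and NF66, and all 6 early libraries lay above all 6 late ones. The stage means were 44.1 ± 4.40, 44.4 ± 11.4, 3.93 ± 0.691 and 5.61 ± 1.69 CPM (SD, n = 3 each). At NF56 101% of the NF50 mean was present, at NF62 8.92% and at NF66 12.7%. The 11.3-fold step between NF56 and NF62 held the whole difference between tadpole and froglet. With 289 and 423.7 reads pooled at NF62 and NF66, counting error is small here. The pooled shares were 8.96% and 13.2%, with 95% Poisson intervals of 7.96 to 10.1% and 11.9 to 14.5%.

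**Figure D1:**
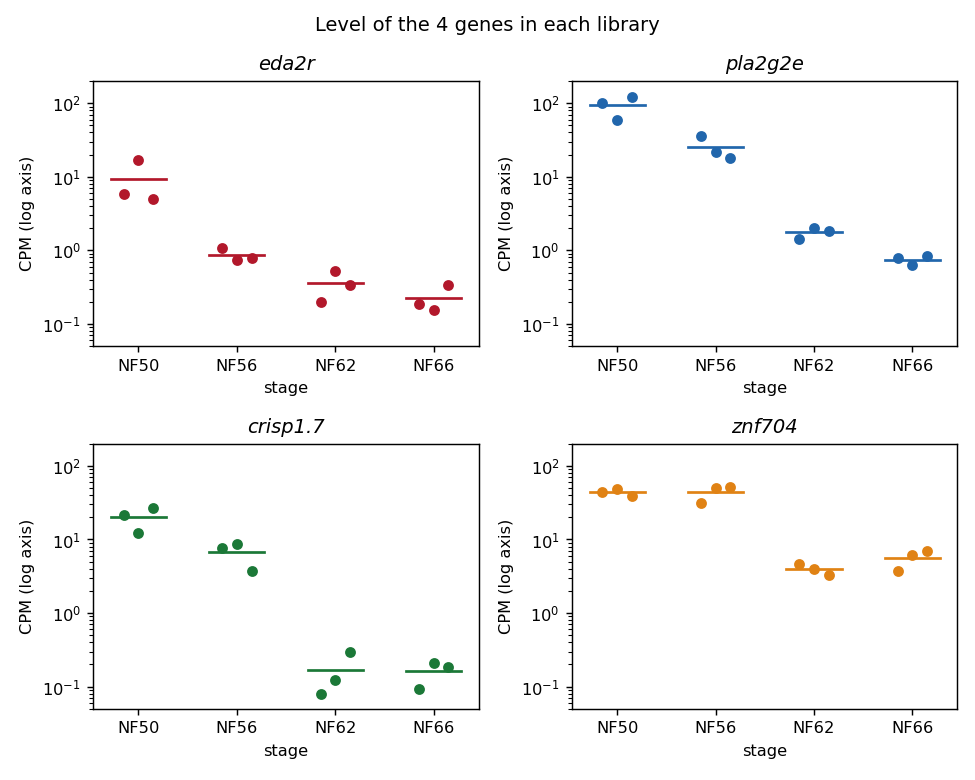
CPM (log axis) of eda2r, pla2g2e, crisp1.7 and znf704 in the 12 libraries by stage; each point is 1 library and each line the stage mean of 3 libraries. The widest gap lies between NF50 and NF56 for eda2r and between NF56 and NF62 for the other genes, and pla2g2e ends at 0.751 CPM.

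The genes were thus lost at different times. Taking the log2 difference between NF50 and NF66 as the whole, the interval from NF50 to NF56 held 64.2% of it for eda2r, 27.3% for pla2g2e and 22.8% for crisp1.7, and the interval from NF56 to NF62 held 23.8%, 55.2% and 76.7%. For znf704 the first interval held -0.37% and the second 118%, since its mean at NF66 lay above that at NF62. Counted in CPM, most of the RNA of eda2r, pla2g2e and crisp1.7 was already gone at NF56 (90.8%, 73.3% and 66.6%). If a gene is said to be off where all 3 libraries of a stage lie under 10% of the NF50 mean, eda2r, pla2g2e and crisp1.7 were off from NF62. Eda2r missed that line at NF56 by 1 library, replicate 1, at 11.4%, with NF50 replicate 3 in the reference mean. Without that library the NF56 mean itself stood at 15.9%, over the line. Znf704 met it at no stage, since NF62 replicate 1 stood at 10.5% and the NF66 libraries at 8.48 to 15.9%. None of the genes was at 0 in any library.

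**Figure D2:**
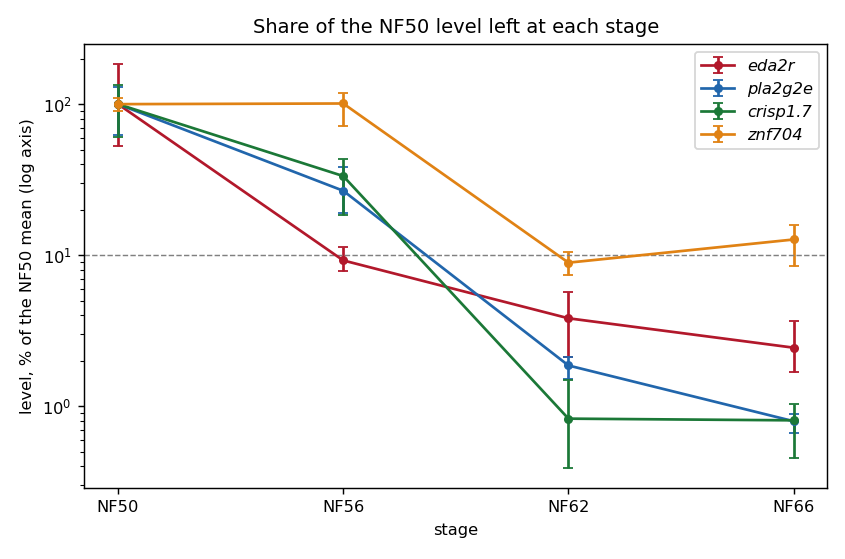
Level as percent of the NF50 mean (log axis) against stage, where points are means of 3 libraries, bars run from the lowest to the highest library, and the dashed line marks 10%. At NF66 pla2g2e and crisp1.7 lie near 0.8%, eda2r at 2.44% and znf704 at 12.7%.

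The edgeR fit gave log2 fold changes of NF66 against NF50 of -5.25 ± 0.58 for eda2r, -6.94 ± 0.40 for pla2g2e, -6.89 ± 0.52 for crisp1.7 and -2.96 ± 0.25 for znf704 (SE). For NF56 against NF50 they were -3.42 ± 0.51, -1.89 ± 0.29, -1.56 ± 0.36 and 0.01 ± 0.23, and for NF62 against NF56 they were -1.28 ± 0.59, -3.85 ± 0.34, -5.33 ± 0.52 and -3.49 ± 0.26, in the same order of genes. For NF66 against NF62 they were -0.56 ± 0.68, -1.19 ± 0.44, -0.00 ± 0.82 and 0.52 ± 0.26. The comparisons share libraries and are given side by side only.

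Across all models, 6.51% were called higher and 7.96% lower at NF56 against NF50, 9.94% and 8.97% at NF62 against NF56, 1.38% and 1.79% at NF66 against NF62, and 17.9% and 18.8% at NF66 against NF50. All libraries of the later stage lay below all of the earlier one for 3 of the 4 genes at NF56 against NF50 (19.0% of all models), for 4 at NF62 against NF56 (18.0%), for 1, pla2g2e, at NF66 against NF62 (10.6%) and for 4 at NF66 against NF50 (24.1%). Nothing is read from these counts, since the genes were chosen for this pattern. Among the 16779 models with at least 1 CPM at NF50, the median model kept 98.6% of its NF50 level at NF56, 99.2% at NF62 and 100% at NF66. Ordered from the smallest share left at NF66, pla2g2e was 2nd, crisp1.7 3rd, eda2r 8th and znf704 131st. At NF56 eda2r was 9th, pla2g2e 84th, crisp1.7 153rd and znf704 9045th. The place of eda2r there rests on its 9.23%, which became 15.9% without NF50 replicate 3, and just 9 models stood at or under 10%. At NF62, 61 models had 10% or less left, and all 4 genes were among them.

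Levels can be compared between genes only per length, which the deposited TPM values, scaled by transcript length and library, allow. At NF50 pla2g2e stood at 78.2 ± 16.7 TPM, crisp1.7 at 31.0 ± 6.57, eda2r at 9.86 ± 8.95 and znf704 at 9.68 ± 3.32 (SD, n = 3 each), and the last 2 did not differ beyond their spread. Pla2g2e was above 91.0% of the tested models at NF50, crisp1.7 above 75.8%, eda2r above 47.4% and znf704 above 47.0%. At NF66 the 4 genes stood at 0.823, 0.337, 0.28 and 1.52 TPM in that order, so znf704, lowest on average at NF50, was highest there.

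The genes also differed in how much their libraries spread within a stage. In NF50 replicate 3, pla2g2e and crisp1.7 were at their lowest for the stage and eda2r at its highest, while znf704 was also at its highest, 48.3 CPM. Over the 12 libraries, the root mean square difference of centred log2 CPM between pla2g2e and crisp1.7 was 0.585. It was 1.27 to 1.61 for the other 5 pairs. The named model closest to pla2g2e by this measure outside the set was at 0.918 and the closest to crisp1.7 at 1.09. Each was thus nearer to the other than to any other named model. Both were chosen for a loss over these same libraries, which the measure also counts, so nothing is read from this likeness.

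The closest named models outside the set are given as description. A model had to share the fall for which each gene was chosen to be close, so nothing is read from these models either. Eda2r was most like cryba2, a crystallin gene (0.619), atad2, a chromatin ATPase of dividing cells (0.622), and cdc45, a part of the replication helicase (0.650). The mean CPM of atad2 was 10.8, 2.39, 0.852 and 0.611 over the 4 stages, and that of cdc45 was 5.30, 1.31, 0.509 and 0.396. Pla2g2e was most like a model that merges pvalb, pvalb.1 and pvalb.2, calcium-binding parvalbumins (0.918), cdk1, the mitotic kinase (0.995), and rrm2.1, a ribonucleotide reductase subunit that makes DNA precursors (0.999). The parvalbumin model went through 3.52, 2.22, 0.137 and 0.0669 CPM. Cdk1 went through 18.3, 5.59, 1.59 and 0.428 CPM and rrm2.1 through 18.8, 3.00, 0.607 and 0.219. Crisp1.7 was most like the same parvalbumin model (1.09), rrm2.1 (1.15) and hmmr, which acts at the mitotic spindle (1.28). Znf704 was most like atp2a1, the calcium pump of muscle (0.577), mgp, which inhibits calcification of matrix (0.585), and nes, the intermediate filament nestin of neural progenitors (0.634). Nes stood at 69.0, 53.9, 11.5 and 12.6 CPM, with its largest step also between NF56 and NF62, while atp2a1 and mgp were low throughout, at 1.65 and 3.11 CPM at NF50.

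Genes related to each of the 4 by pathway or family were tested in the same fit. On the deposited TPM with no further scaling, the median log2 difference of all models was 0.32 at NF56 against NF50 and 0.29 at NF66 against NF50, so every fold change here is relative to the scaling of the libraries. On log2(TPM + 1) with limma the NF66 against NF50 calls of pafah1b3, glipr2, znf395, pag1 and mrpl53 were lost. Calls at single steps lost on that scale included those of hpgds, nr3c2 and the model of cebpd and rps20 at NF56 against NF50. They also included those of znf395, pag1, glipr2 and traf3 at NF62 against NF56, and that of znf395 at NF66 against NF62. For the receptor, 31 models of ectodysplasin and TNF receptor signalling were tested. At NF66 against NF50 5 were higher and 6 lower, beside 17.9% and 18.8% of all models. Their median log2 fold change was -0.02, beside 0.02 for all models. The sister receptor gene edar rose from 0.974 ± 0.419 to 2.45 ± 0.636 CPM (log2 1.31 ± 0.33, adjusted p = 0.0084), opposite to eda2r. Traf3, an adaptor of these receptors, rose from 5.23 ± 0.17 to 12.3 ± 4.33 CPM (log2 1.24 ± 0.24, adjusted p = 0.0017). At the first step, where most eda2r RNA was gone, 1 of the 31 was higher and none lower, and for NF62 against NF56 the counts were 2 and 4, with none called at NF66 against NF62. Beside these stand 6.51% higher and 7.96% lower of all models at NF56 against NF50, and 9.94% and 8.97% at NF62 against NF56. At NF66 against NF62 the shares of all models were 1.38% and 1.79%. The ligand gene eda and the adaptor gene edaradd were not analysed here.

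Of 11 other genes of the phospholipase A2 list tested, 2 were higher and 1 lower at NF66 against NF50 (median log2 0.18). Of all models, 17.9% were higher and 18.8% lower. The genes called were pafah1b1 and pafah1b2, higher, and pafah1b3, lower. No gene of the list was called at NF56 against NF50 or at NF66 against NF62, and 1, pafah2, was lower at NF62 against NF56. Beside these stand 6.51% higher and 7.96% lower of all models at NF56 against NF50, and 9.94% and 8.97% at NF62 against NF56. At NF66 against NF62 the shares of all models were 1.38% and 1.79%. No tested pla2g gene of the list was called in any comparison. Pla2g2a, pla2g2c, pla2g2d, pla2g2f and pla2g5 matched no named model. Pla2g1b, pla2g3, pla2g12b and pla2g4d, with 0 to 7 reads over the 12 libraries, were not tested. Pafah1b2, a subunit of a platelet-activating factor acetylhydrolase, rose from 79.7 ± 6.32 to 116 ± 22.5 CPM (log2 0.54 ± 0.14, adjusted p = 0.0098), a call lost without NF50 replicate 4 (adjusted p = 0.051). Its partner subunit pafah1b3 fell from 82.6 ± 7.76 to 55.6 ± 4.3 CPM (log2 -0.57 ± 0.11, adjusted p = 0.0017). The intracellular enzymes pla2g4a (log2 0.19 ± 0.09, adjusted p = 0.12) and pla2g6 (log2 0.12 ± 0.07, adjusted p = 0.23) and the receptor gene pla2r1 (log2 -0.13 ± 0.15, adjusted p = 0.55) were not called.

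Downstream of phospholipase A2, 16 genes of arachidonate and prostaglandin metabolism were tested, of which 2 were higher and 4 lower at NF66 against NF50 (median log2 -0.19). Of all models, 17.9% were higher and 18.8% lower. The rule names hpgds, a prostaglandin D2 synthase, and a model that carries both ptgds, the other such synthase, and c8g.2. Hpgds stood at 45.0 ± 2.29, 21.7 ± 1.27, 11.0 ± 0.904 and 10.6 ± 1.8 CPM over the stages (SD, n = 3 each). It fell by 1.05 ± 0.12 on the log2 scale at the first step (adjusted p = 0.00035, but 0.086 on log2(TPM + 1) with limma) and by 0.98 ± 0.12 at the second (adjusted p = 0.00027), and by 2.09 ± 0.12 over all (adjusted p = 5.3e-07). The model of ptgds and c8g.2 stood at 1070, 545 and 1310 CPM at NF50, at 439, 465 and 363 CPM at NF56, at 371, 155 and 810 CPM at NF62, and at 123, 116 and 97.0 CPM at NF66. It fell by 3.12 ± 0.51 on the log2 scale from NF50 to NF66 (adjusted p = 0.00064), with a wide spread at NF50 and NF62, and it was not called at NF56 against NF50 (adjusted p = 0.12). Which of its 2 genes moved cannot be told. The list held 0 higher and 1 lower at NF56 against NF50, 0 and 3 at NF62 against NF56, and none at NF66 against NF62. Beside these stand 6.51% higher and 7.96% lower of all models at NF56 against NF50, and 9.94% and 8.97% at NF62 against NF56. At NF66 against NF62 the shares of all models were 1.38% and 1.79%.

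Few relatives of crisp1.7 could be measured. Of 25 CAP superfamily symbols 5 matched a named model and 2 were tested. Crisp1.7 held 1736.3 reads over the 12 libraries, against 13.3 for crisp1.3, 3.3 for the model of allurin, a sperm attractant of Xenopus, and 0 for crisp1.6. Glipr2, a CAP protein of the Golgi, fell from 26.1 ± 0.164 to 18.5 ± 2.26 CPM (log2 -0.50 ± 0.09, adjusted p = 0.001). Crispld2, which is secreted, stood at 2.76 and 3.16 CPM and was not called (log2 0.20 ± 0.17, adjusted p = 0.40). Crispld1 and pi15 were not analysed here.

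Of the 17 tested relatives of znf704 and glucocorticoid genes, 1 was higher and 6 lower at NF66 against NF50, with a median log2 fold change of -0.30. Of all models, 17.9% were higher and 18.8% lower. Among the 6 were 2 models shared with ribosomal protein genes, that of cebpd and rps20 and that of tsc22d3 and rps4x. The latter went from 2420 to 1160 CPM, and which of its genes moved cannot be told. The family member znf395 stood at 79.0, 95.5 and 88.9 CPM at NF50, at 81.3, 86.2 and 102 CPM at NF56, at 45.7, 42.9 and 49.6 CPM at NF62, and at 59.7, 72.9 and 73.9 CPM at NF66. All 6 late libraries lay below all 6 early ones, as for znf704, and NF66 lay above NF62. Between NF56 and NF62 znf395 fell by 0.96 ± 0.11 on the log2 scale (adjusted p = 0.00024, but 0.055 on log2(TPM + 1) with limma), a smaller step than the -3.49 ± 0.26 of znf704; the difference between the genes was not tested. At NF66 it rose by 0.58 ± 0.11 over NF62 (adjusted p = 0.023), a call lost when NF62 replicate 1, 2 or 3 or NF66 replicate 2 or 3 was left out (adjusted p = 0.056 to 0.089). That call was also lost with only the 2 stages fitted (adjusted p = 0.12) and on log2(TPM + 1) with limma (adjusted p = 0.95). It stayed lower than at NF50 (log2 -0.35 ± 0.11, adjusted p = 0.03), a call lost without NF50 replicate 3 or 4 or NF66 replicate 1 (adjusted p = 0.067 to 0.11). On log2(TPM + 1) with limma the difference between NF66 and NF50 was -0.01 (adjusted p = 0.97), so it depended on the scaling.

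**Figure D3:**
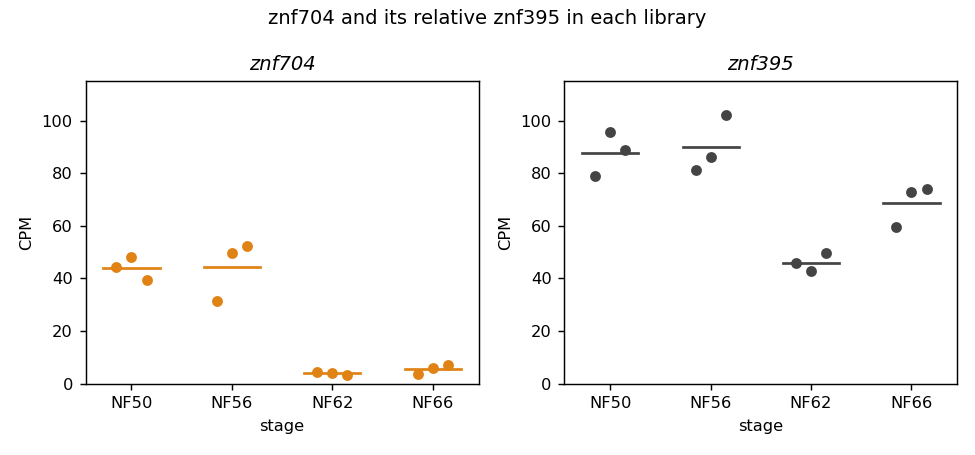
CPM of znf704 and its relative znf395 in each library by stage, on a common linear axis, where points are libraries and lines are means of 3. Both are level from NF50 to NF56 and lower at NF62, where znf704 stands at 3.93 CPM and znf395 at 46.1 CPM.

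The glucocorticoid receptor gene nr3c1 stood at 50.5 CPM at NF50 and 60.5 CPM at NF66 and was not called (log2 0.26 ± 0.11, adjusted p = 0.082). The mineralocorticoid receptor gene nr3c2, whose product also binds corticosteroid, rose from 11.1 ± 1.23 to 34.0 ± 4.73 CPM (log2 1.61 ± 0.14, adjusted p = 6.9e-06). Cebpd, a transcription factor that glucocorticoid induces in mammals, sat on a model shared with the ribosomal protein gene rps20, which fell from 1410 ± 176 to 581 ± 128 CPM (log2 -1.28 ± 0.18, adjusted p = 0.00026), and which of the 2 genes moved cannot be told. For this list the counts higher and lower were 1 and 5 at NF56 against NF50, where znf704 itself was level. They were 1 and 3 at NF62 against NF56, and 2 and 0 at NF66 against NF62. Both models shared with ribosomal protein genes were among the 5, and that of tsc22d3 and rps4x among the 3. On log2(TPM + 1) with limma the call of the cebpd and rps20 model at NF56 against NF50 was lost (adjusted p = 0.097). Beside the list counts stand 6.51% higher and 7.96% lower of all models at NF56 against NF50, and 9.94% and 8.97% at NF62 against NF56. At NF66 against NF62 the shares of all models were 1.38% and 1.79%. Slc2a4rg, the third gene of the znf704 family, was not analysed here.

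**Figure D4:**
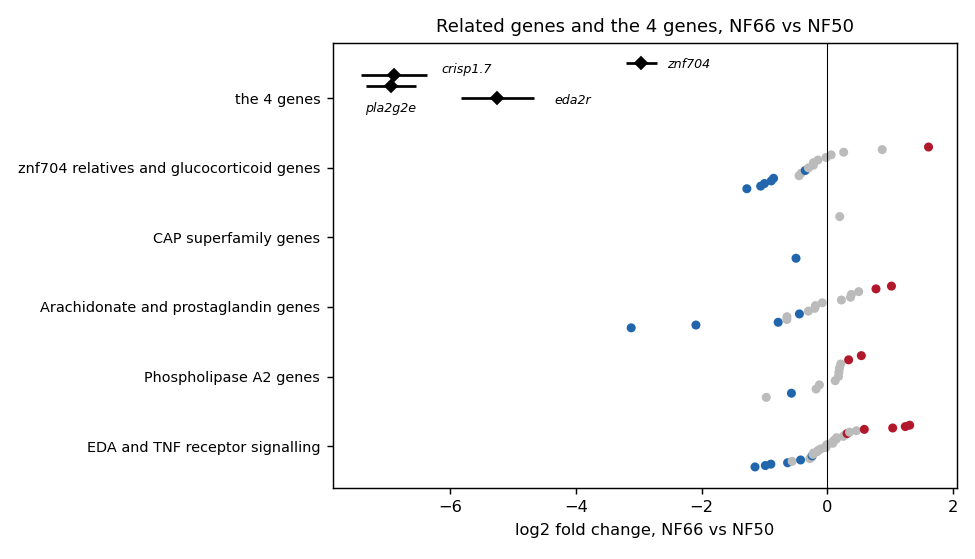
Log2 fold change of NF66 against NF50 for the tested models of the 5 related lists, 1 point a model (red called higher, blue called lower, grey not called), with eda2r, pla2g2e, crisp1.7 and znf704 as diamonds with SE bars. The related models lie between the -3.12 of the ptgds and c8g.2 model and the 1.61 of nr3c2, and the medians of the lists between -0.30 and 0.18.

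Neighbours of the 4 on the chromosome, by order in RefSeq (assembly UCB_Xtro_10.0), were looked at in the same fit. They are the 2 nearest named protein-coding genes on each side, and genes of other kinds or with a placeholder symbol were passed over. Of 16 neighbours 11 were tested, and at NF66 against NF50 none was higher and 3 were lower, all beside znf704. Of all models, 17.9% were higher and 18.8% lower. They were pag1, a membrane adaptor protein (log2 -0.36 ± 0.07, adjusted p = 0.0016), mrpl53, a mitochondrial ribosomal protein (log2 -0.51 ± 0.10, adjusted p = 0.002), and zbtb10, a zinc finger protein (log2 -0.23 ± 0.07, adjusted p = 0.025). The call of zbtb10 was lost without NF50 replicate 3 or 4 or NF66 replicate 1 or 2 (adjusted p = 0.061 to 0.093) and with only the 2 stages fitted (adjusted p = 0.072), and its direction turned on unscaled TPM (log2 0.10). Tpd52, the other neighbour of znf704, was not called (log2 0.03 ± 0.10, adjusted p = 0.82). Pag1 was also lower at the step at which znf704 was lost, NF62 against NF56 (log2 -0.39 ± 0.07, adjusted p = 0.0027), a call lost on log2(TPM + 1) with limma (adjusted p = 0.24).

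Beside eda2r, the androgen receptor gene ar, stard8 and cxorf56 were called in none of the 4 comparisons. Beside pla2g2e, pusl1, acap3 and ube2j2 were not called and scnn1d, with 11 reads in all, was not tested. Beside crisp1.7 lie other genes of its family, crisp1.11, crisp1.6, crispl and crisp2-like. Crisp1.11 matched no model and was not analysed here, and the others, with 0, 13 and 3.3 reads over the 12 libraries, were not tested.

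Markers of other tissue moved with some of these levels. The 9 blood cell models, among them globin genes, summed to 1560 to 2170 CPM at NF50, 1010 to 1240 at NF56, 423 to 607 at NF62 and 331 to 565 at NF66, with at most 1 at 0 in a library. Of 8 tested, 5 were lower and none higher at NF66 against NF50, beside 18.8% and 17.9% of all models. Globin models carried most of the sum. That of hbd and hbg2 fell from 785 ± 145 to 100 ± 17.9 CPM (log2 -2.97 ± 0.17, adjusted p = 5.5e-07). That of hba3 and hba4 fell from 969 ± 161 to 276 ± 103 CPM (log2 -1.81 ± 0.25, adjusted p = 0.00022). Not called were gata1 (log2 -0.187, adjusted p = 0.54), nfe2 (log2 0.077, adjusted p = 0.88) and epor (log2 -0.705, adjusted p = 0.27). The globin genes hba1, hba2, hbb1 and hbb2 matched no named model, so the sum does not cover all globins. How much blood a library held cannot be told from it. NF50 replicate 3, lowest at its stage for pla2g2e and crisp1.7, also had the lowest blood sum at NF50, 1560 CPM against 1780 and 2170. It was lowest at NF50 for the sums of all 7 marker lists, neurons included. NF56 replicate 3, with the lowest levels of both genes at NF56, had the lowest blood sum there, 1010 CPM. Its neuron, leukocyte and muscle sums were also the lowest at NF56, while its choroid plexus and vascular sums were the highest. It held the fewest counts of all libraries, 12046529. The highest blood sum at NF56 was in replicate 2, 1240 CPM, as was the highest crisp1.7, while pla2g2e was highest in replicate 1. The blood sum at NF66 was 428 CPM on average against 1840 at NF50, while less than 1% of pla2g2e and crisp1.7 was left. The part of blood in the levels of these genes was not tested.

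**Figure D5:**
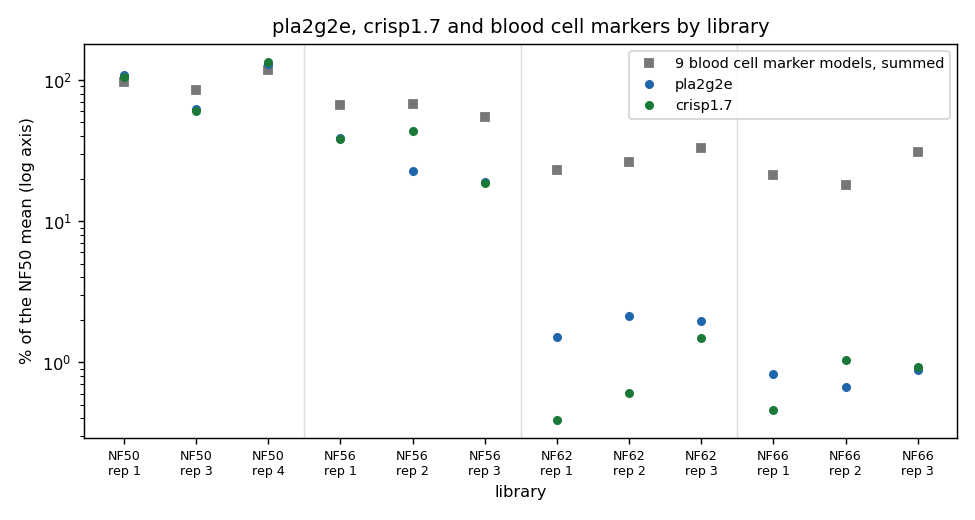
Pla2g2e, crisp1.7 and the summed CPM of 9 blood cell models in each of the 12 libraries, as percent of their own NF50 mean (log axis). The blood sum has a mean of 1840 CPM at NF50 and 428 CPM at NF66, and both genes lie far below its share at NF62 and NF66.

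The sums of the other lists, which a few abundant models can carry, differed less between NF50 and NF66. The median log2 fold change of NF66 against NF50 was -0.70 for the blood list and -0.93 for skin, cartilage and pituitary. It was -0.64 for vascular and meningeal models and -0.50 for choroid plexus and ependyma. For skeletal muscle it was -0.08, for leukocytes and microglia 0.15 and for neurons 0.18, beside 0.02 for all models. The counts below stand beside 17.9% higher and 18.8% lower among all models. Vascular and meningeal models (16) summed to 299 to 328 CPM at NF50 and 221 to 265 at NF66, with 8 of 16 tested lower and 2 higher. Choroid plexus and ependyma models (16) summed to 236 to 315 and 202 to 247 CPM, with 5 of 12 lower and 1 higher. Models of skin, cartilage and pituitary (19) summed to 645 to 694 and 561 to 601 CPM, with 8 of 15 lower and 1 higher. Leukocyte and microglia models (16) summed to 75.6 to 85.1 CPM at NF50 and 135 to 170 at NF66, with 4 of 12 higher and 1 lower. Skeletal muscle models (18) summed to 872 to 967 and 1100 to 1600 CPM, with 5 of 15 higher and 6 lower. Several of them carry a second gene, such as cd81 with tnnt3, hprt1 with ckm and sf3b5 with acta1. The muscle sum and counts are therefore not of muscle genes alone. Myh2 rose from 186 to 564 CPM, while mylpf fell from 2.95 to 0.658 CPM and myl1 from 2.52 to 0.248 CPM. Neuron models summed to 7180 to 7370 CPM at NF50 and 8540 to 9020 at NF66, with 8 of 20 higher and 3 lower. The part of these cells in the levels of the 4 genes was not tested.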

How the data were processed

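Deposited values were expected counts of 33875 models in each of 12 libraries, with TPM and effective length beside them, per the file headers. Tools listed by the submitters' processing notes, with no roles, are Bowtie, RSEM, cutadapt, DESeq2 and CASAVA 1.8.2. No source used here gives the genome build or annotation. Counts were rounded, since 53.7% of them were not whole. Models were kept by filterByExpr by stage (minimum count 10, minimum total 15), scaled by TMM, and fitted over all libraries with a mean per stage by edgeR 4.0.16 (R 4.3.3), with the quasi-likelihood F test and Benjamini-Hochberg adjustment over 19584 models at 0.05. The SE of a log2 fold change is its size divided by the square root of F. The biological coefficient of variation was 18.3%. The fit was also run on counts simulated from its own means and dispersions, with 2-fold and 4-fold changes. That run does not cover divided reads, very low counts or falls as large as those here, and nothing is read from it.

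The 4 genes and all lists, including those of the markers, were chosen with earlier results of these data known. The text names the 4 genes and, from each related list, the 2 genes with the largest change among those called at NF66 against NF50. It also names a set of direct partners and the 2 nearest named protein-coding genes on each side on the chromosome. Last, it gives the 3 named models closest to each gene in centred log2 CPM (prior count 2). The single models of the blood list, pafah1b1, pafah2, tsc22d3 and the muscle models were named after their values were seen. Replicates are biological per the labels. Alternatives were RLE size factors, no filter, a filter of 1 CPM in 3 libraries, DESeq2 1.42.0, limma 3.58.1 on log2(TPM + 1), a replicate block, fits of 2 stages, a prior count of 0.5 and leaving out each library. The RefSeq gene table gave names for 169 models. RefSeq sequences were not used here. A few genes and 1 list covered by this rule are not reported here.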

Additional observations from a re-analysis of the deposited data

How the results depend on the processing

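On log2(TPM + 1) with limma, which has no further scaling and shrinks low genes, the counts of models called higher and lower were 333 and 122 at NF56 against NF50, 173 and 274 at NF62 against NF56, and 1 and 2 at NF66 against NF62, and 969 were lower at NF66 against NF50. The called members at NF66 against NF50 were then 4 for ectodysplasin and TNF receptor signalling, 1 for phospholipase A2, 0 for CAP, 3 for znf704 relatives and glucocorticoid genes, 3 for blood markers and 0 for the neighbours. These counts pool both directions, and the share of all models called in both on that scale is not given here. Nothing is therefore read from them about the lists. On that scale the log2 difference of eda2r was -2.08 at NF56 against NF50, -0.55 at NF62 against NF56 and -2.77 at NF66 against NF50. That of pla2g2e was -3.28 at NF62 against NF56, -0.66 at NF66 against NF62 and -5.43 at NF66 against NF50. Crisp1.7 was at -3.40 (NF62 against NF56) and -4.56 (NF66 against NF50), znf704 at -2.67 and -2.06, and the neighbour zbtb10 turned to 0.10. For NF66 against NF62, the step with fewest calls, counts higher and lower were 175 and 188 with no filter, 623 and 743 with DESeq2, and 0 and 4 with only the 2 stages fitted.

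Same-numbered libraries of different stages correlated at -0.181 to 0.638 over 15 pairs, 9 of them over 0.1, and 7 of 11 libraries correlated best with their own number. All pairs of number 2 and of number 3 were over 0.1 and none of number 1 was. The numbers were therefore not taken to pair the samples, for which every pair had to be over 0.1. Pairs of different number correlated at -0.732 to 0.56, the highest being NF62 replicate 1 with NF66 replicate 3. The pairs of numbers 2 and 3 correlated at 0.447 to 0.638. This comes from the data, not the design, since no source used here says what the numbers mark. The main fit has no block, so any structure shared by number stays in its spread. With the replicate number as a block, 2554 models were higher and 2889 lower at NF56 against NF50, beside 1275 and 1559 in the main fit. At NF62 against NF56 they were 3033 and 2868, beside 1947 and 1757. At NF66 against NF62 they were 1008 and 1004, beside 270 and 350. In the edgeR fit with the block, zbtb10 at NF66 against NF50 had an adjusted p of 0.069.

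Leaving out each library gave 641 to 1377 higher and 893 to 1683 lower at NF56 against NF50, 1108 to 1855 lower at NF62 against NF56, and 38 to 261 higher and 75 to 310 lower at NF66 against NF62, with the fewest at that last step without NF62 replicate 3. Phospholipase A2 calls ranged from 1 (without NF50 replicate 4) to 3. Crisp1.7 ranged from -6.01 (without NF62 replicate 3) to -4.99 at NF62 against NF56 and from -0.34 to 0.68 at NF66 against NF62. The percent left without each NF50 library was computed after seeing the data. With a prior count of 0.5, 2 of the 3 closest models were shared for each of the 4 genes. Over all alternatives, 294 fold changes of the 4 genes moved by less than 1 SD between replicates, 11 by more and 1 turned, that of crisp1.7 without NF62 replicate 3; values near 0 took either sign. Of the values of named genes past the threshold, pooled over all alternatives, 551 kept their side, 56 lost it and 1 turned. The pool repeats 32 values and hides a difference between alternatives. On log2(TPM + 1) with limma 19 of the 32 lost their side and 1 turned. The other refits lost 5 of 192, and the fits without 1 library lost 32 of 384. Low counts limit eda2r and crisp1.7 at NF62 and NF66.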

Other observations

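The level of eda2r in NF50 replicate 3, 17.1 CPM, was 2.90 times the next highest NF50 library. This was noticed after the values were seen. Of 16779 models with at least 1 CPM at NF50, 14 had a ratio at least as high, 5 of them named, and the median ratio over all was 0.957. Among the 14, eda2r and cadm4, a cell adhesion molecule, were the 2 models with 10% or less of the NF50 level left at NF56. Cadm4 stood at 17.2, 56.7 and 13.5 CPM in the NF50 libraries, at 0.368, 0 and 0 CPM at NF56, and at 0 in all libraries of NF62 and NF66. The model also had the smallest share left at NF66 of all 16779.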
